A study of Mus musculus with 12 samples.

Results

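Whole livers of C57BL/6 mice on a NASH diet were compared with whole livers of C57BL/6 mice on chow by RNA sequencing, across every gene of the deposited liver table. The comparison holds 6 of the 12 samples of the series, 3 libraries for each diet, and 16703 genes. The libraries were taken as members from the column names of the table, which carry the diet and the number of each library. The remaining samples are purified sinusoidal endothelial cells, normalized in a table of their own and not used here.

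A single protocol text gives the feeding as 36 weeks of the diet D09100301 (Research Diets), and it is attached to every sample, chow included, so the chow libraries' own length of feeding is not given. Per the labels, livers were snap-frozen, total RNA was taken with TRIzol, and a TruSeq kit without strand marking gave the libraries. Reads of a gene and of its antisense partner can therefore not be told apart. The labels do not give the age or sex of the mice, nor do they say that libraries 1 to 3 of a diet are separate animals, so p-values rest on the spread between libraries, part of which may be technical.

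Nonalcoholic steatohepatitis, NASH, is fat storage in the liver joined by inflammation, hepatocyte injury and scarring. Most RNA of a liver comes from hepatocytes, which make plasma proteins, clear ammonia, and metabolise sterols, bile acids and drugs, with different tasks near the portal vein and near the central vein. Scarring is laid down mainly by stellate cells, the vitamin A storing cells that can turn into myofibroblasts. Inflammation involves the resident macrophages of the liver, named Kupffer cells, and cells recruited from the blood. In bulk samples such as these, fewer cells of a type and less RNA per cell cannot be told apart.

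Depth was even. The recovered reads, obtained by undoing the division that scaled each library, numbered 47000197 to 57397720 per library. Pearson correlations of log2 values were 0.9831 to 0.9913 within a diet and 0.9508 to 0.9659 between diets. Transcripts of the Y-linked genes Ddx3y, Eif2s3y, Kdm5d and Uty were read in all 6 libraries, at 551 to 5110 normalized reads, and Xist, which female cells express, at 1.08 to 4.75. The third chow library stood apart from the other chow libraries in 146 genes with a mean of at least 50 reads, 58 at least 2-fold above both and 88 at least 2-fold below both, against 15 to 26 genes for the other chow libraries. Jun, an immediate early gene, had 1265, 1367 and 23365 normalized reads in chow libraries 1, 2 and 3, against 2361, 2669 and 3023 in NASH, a difference of -0.36 that was 1.02 without that library (adjusted p = 0.000262). The third chow library also held the least of Hamp, with 44534, 32064 and 2755 in the chow libraries. Hamp encodes the iron hormone hepcidin. The NASH libraries had 70, 77 and 26 such genes. Each result below whose call rested on the third chow library is given without it as well.

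Of the 16703 genes, 7691 (46.0%) passed the test at an adjusted p under 0.05, 4179 higher in NASH (25.0%) and 3512 lower (21.0%). Values are the deposited normalized reads, and differences are log2(normalized reads + 1) in NASH minus chow, tested with limma and adjusted by Benjamini-Hochberg. The scaling between libraries decided many of the falls. Scaled by total reads in place of the authors' factors, the median over all genes moved by 0.40 on the log2 scale, and 7878 genes were higher (47.2%) and 904 lower (5.41%). All 4179 genes higher under the authors' scaling were also higher under the other, whereas of the 3512 lower genes 902 stayed lower, 25.7%. The change of scaling moved nearly all genes upward by a similar amount, so the rises could hardly lose their calls. That they stayed is thus no test of the rises. Counts for each gene group are therefore given under the authors' scaling, with those under scaling by total reads after them in brackets. The background to read them against is 25.0% higher and 21.0% lower, and in the brackets 47.2% and 5.41%. Under the authors' scaling this background differed strongly with the level of the gene, as given below. No list was set against genes of its own level, so a count above the background need not be particular to the list. Without the third chow library the background was 24.3% and 20.1%, and with edgeR on the recovered reads 24.9% and 20.4%. In 29.8% of genes all NASH libraries lay above all chow libraries, and in 27.3% all lay below. Counts of 5 or fewer moved by over 1.5 times in several lists when single libraries were left out. The lists and their members were chosen with earlier results of these data known, so the counts describe the lists and do not test them. Some genes belong to several lists, so counts of different lists are in part counts of the same genes.

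**Figure D1:**
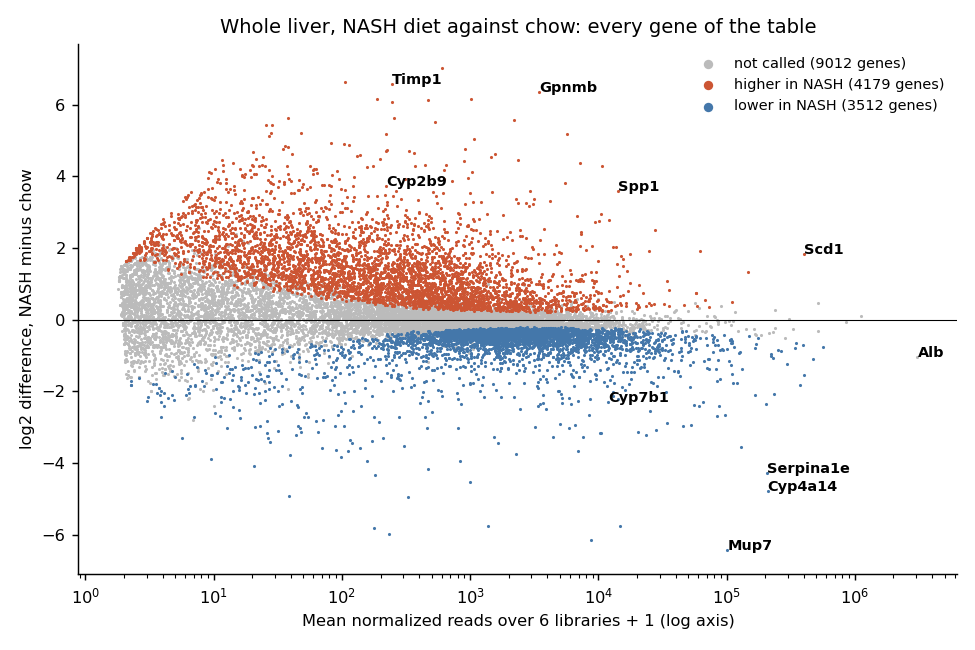
Each point is 1 gene, with its mean normalized reads over the 6 libraries plus 1 on a log axis and its log2 difference of NASH minus chow on the vertical axis; colours mark the 4179 genes higher in NASH, the 3512 lower and those not called. Under the authors' scaling, the most abundant genes lie mostly below 0, and Alb, at the far right, was not called.

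Under the authors' scaling, the direction of change followed the level of the gene. At a mean level of 10000 normalized reads or more, 61.01% of genes were lower and 9.647% higher. Among those between 10 and 100, 5.889% were lower and 42.92% higher. These percentages were not computed with scaling by total reads. The highest level group had a median of -0.44, near in size to the 0.40 by which that scaling moved the median over all genes. The 50 genes with most reads on chow took 33.56 ± 0.7439% on chow and 27.18 ± 1.064% in NASH of all reads, and 32 of them fell and 1 rose (27 and 5). A share of a library's reads does not depend on the authors' factors, but it is itself a division by total reads. A smaller share of some genes also makes the shares of others larger. With 3 libraries against 3 no exact two-sided permutation test can give a p under 0.1, so shares are given as values with their SD (n = 3). The 10 largest falls by difference of means among called genes were all in hepatocyte genes, and Alb, whose means differed by more but which was not called, is given below. Among them were Cyp4a14, Mat1a, Serpina3k, Serpina1e, Apoa1, Mup3, Cps1, Cyp2e1 and Cyp4a10. The 10 largest rises among called genes were Scd1, the stearoyl-CoA desaturase that makes oleate, then Apoa4, Car3, Cd74, B2m, Psap, Ly6e, Ctsb, Cp and Actb. Mup20 and Apoe, not called and given below, had differences of means within the range of these. Scd1 had 153181, 201364 and 169265 on chow and 510434, 858202 and 527500 in NASH, a difference of 1.82 ± 0.26 (SE, adjusted p = 0.000395), with no overlap of the diets. Its share of reads went from 0.2879 ± 0.03761% to 1.384 ± 0.3808%. Apoa4 had 146736, 104574 and 31428 on chow and 201326, 218937 and 173379 in NASH, and its log2 difference of 1.33 was 0.67 without the third chow library (adjusted p = 0.0478), was not called without any one of the second chow and the NASH libraries (adjusted p = 0.0508 to 0.123), and was not called by edgeR (0.0608). B2m, which rose by 0.49, was not called without the first chow library (adjusted p = 0.0846) or the second (0.0595).

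**Figure D2:**
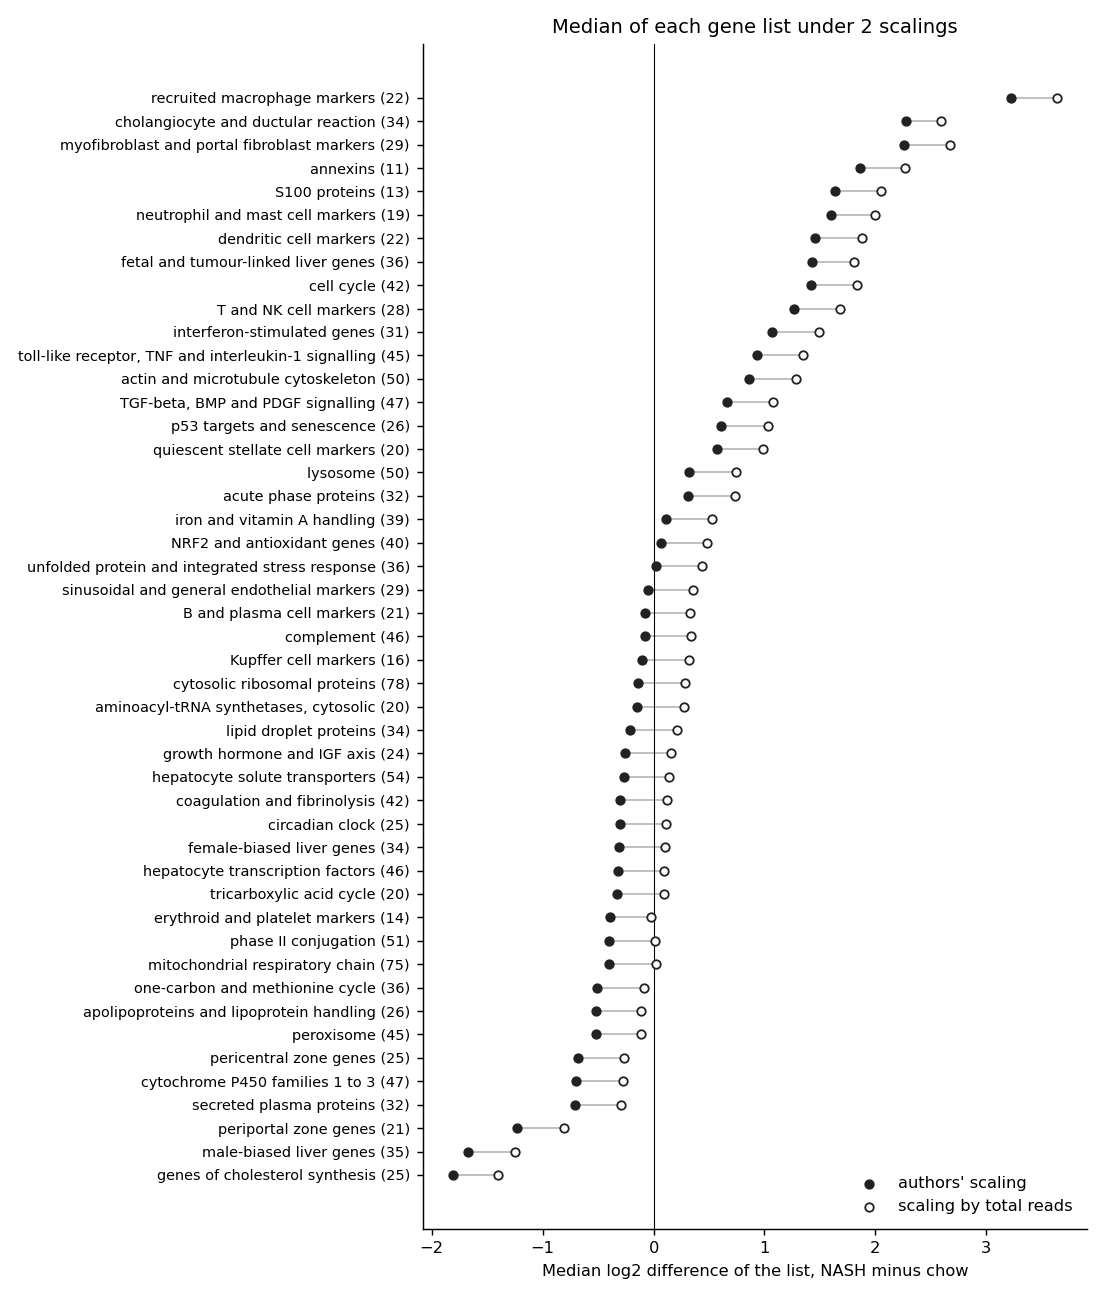
Each row is a gene list with the number of its members in the table, and points give the median log2 difference of NASH minus chow, filled under the authors' scaling and open under scaling by total reads. Medians of 16 of the 47 lists lie below 0 under the authors' scaling and above 0 by total reads, while recruited macrophage markers lie furthest right and cholesterol synthesis furthest left.

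Plasma protein genes took a smaller share of the liver's reads in NASH, 16.04 ± 0.4888% on chow and 12.25 ± 0.3014% in NASH. Of 32 genes for secreted plasma proteins, 21 were lower and 2 higher (16 lower and 6 higher), with a median log2 difference of -0.71 (-0.29). Alb, the albumin gene on chromosome 5 at 90460897 to 90476602 (GRCm38), had 3858620, 4348770 and 4181700 on chow and 2101050, 2013990 and 1962590 in NASH normalized reads. The diets did not overlap and the ratio of means was 0.4906, but the fit assumes a large spread for genes of this level and the difference of -1.03 ± 0.47 (SE, adjusted p = 0.0993) was not called. It was called by edgeR on the recovered reads (-1.02, adjusted p = 0.000324), by limma without a trend (0.00186) and with scaling by total reads (-0.61, adjusted p = 0.028). Alb held 6.815 ± 0.4533% of reads on chow and 4.461 ± 0.1747% in NASH. Ttr, which carries thyroxine, had 194315, 225134 and 214693 on chow and 195105, 142128 and 142450 in NASH, with overlapping diets. Serpina1e, an alpha-1 antitrypsin gene on chromosome 12 at 103946931 to 103958975 (GRCm38), fell from 448915, 418490 and 313232 to 13574, 28782 and 20330, a difference of -4.28 ± 0.26 (SE, adjusted p = 3.61e-06). Its relative Serpina1d fell by 1.76, and Serpina3k, a protease inhibitor that binds kallikrein, by 1.55. The Serpina1 genes are near-identical copies, so the reads given to each are uncertain. Against this direction, Serpina7, which encodes thyroxine-binding globulin, rose from 1140, 1885 and 1930 to 12734, 10780 and 12714 (2.90 ± 0.18 (SE, adjusted p = 4.42e-06)), and Cp, the copper carrier ceruloplasmin, rose by 0.54.

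Of 26 apolipoprotein and lipoprotein-handling genes, 13 fell and 5 rose (10 and 9). Apoa1, the main protein of high-density lipoprotein, had 697235, 697672 and 545760 on chow and 337767, 272552 and 294185 in NASH and a difference of -1.10 ± 0.23 (SE, adjusted p = 0.00394). Apom, which carries sphingosine-1-phosphate, fell by 1.51. Apoe, a remnant-clearing apolipoprotein, had 1074360, 1153240 and 986914 on chow and 1282450, 1107020 and 1060520 in NASH, and the diets overlapped; with scaling by total reads it was called higher (adjusted p = 0.0223). Lpl, the lipoprotein lipase that normal adult hepatocytes make little of, rose from 1901, 2153 and 2538 to 9429, 10091 and 17573 (2.44 ± 0.21 (SE, adjusted p = 2.9e-05)). Vldlr, a receptor for triglyceride-rich particles, rose by 1.94.

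Genes that mouse livers express at different levels in males and females, a pattern set largely by the pulses of growth hormone, were divided by sex. Of 35 male-biased genes, 25 fell and 1 rose (23 and 2), with a median of -1.67 (-1.25). Elovl3, a fatty acid elongase, fell from 6238, 5533 and 5990 to 1331, 1978 and 1003 (-2.10 ± 0.20 (SE, adjusted p = 4.78e-05)). Cyp7b1, an oxysterol hydroxylase, fell from 21147, 20716 and 17132 to 3104, 5418 and 3826 (-2.29 ± 0.18 (SE, adjusted p = 1.7e-05)). Hsd3b5, a steroid dehydrogenase, fell by 4.17, Slco1a1, an organic anion carrier, by 2.66, and Cyp2d9, a steroid hydroxylase, by 1.66. In each of these genes every NASH library lay below every chow library.

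The largest falls among male-biased genes were in the major urinary proteins, pheromone carriers passed to the urine. Mup7 had 241145, 207689 and 149038 on chow and 1635, 4858 and 1490 in NASH and a difference of -6.42 ± 0.38 (SE, adjusted p = 3.61e-06). Mup12 and Mup1 fell by 6.14 and 5.75, and Mup3, which is not in the male-biased list, by 2.07. Of 18 Mup genes analysed, 13 fell and 0 rose (12 and 1), and their joint share of reads was 1.824 ± 0.09625% on chow and 1.549 ± 0.234% in NASH, with overlap. Mup20, the attractant darcin, was picked out after its values were seen. It had 397286, 393973 and 505300 on chow and 585717, 716877 and 508540 in NASH, and its share was 0.7152 ± 0.1267% and 1.323 ± 0.1719%. By the test its difference was 0.48 ± 0.25 (SE, adjusted p = 0.15), with edgeR 0.49 (adjusted p = 0.0347), and with scaling by total reads 0.89 (adjusted p = 0.00177). Sequence is nearly shared among most Mup genes, so how reads were split between them is uncertain.

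Of 34 female-biased genes 13 rose and 12 fell (14 and 12). Cyp2b9 was among the risers, with 34.4, 16.2 and 16.4 on chow and 799, 81.4 and 368 in NASH and a difference of 3.72 ± 0.68 (SE, adjusted p = 0.00183); Cyp2a4 had 30.8, 34.5 and 35.9 on chow and 1465, 275 and 835 in NASH and 4.33 ± 0.48 (SE, adjusted p = 0.000105). Both spread over more than 4-fold within the NASH libraries, with the second library lowest. Ntrk2, a neurotrophin receptor, rose from 48.6, 42.1 and 106 to 1709, 2748 and 1731 (5.04 ± 0.32 (SE, adjusted p = 4.79e-06)). Cux2, a repressor of male-biased genes that is itself female-biased, fell by 3.45. It had 291, 350 and 34.9 on chow, lowest in the third library, and 11.9, 13.1 and 14.5 in NASH. The female-biased list took 1.111 ± 0.09665% on chow and 0.1547 ± 0.003834% in NASH of reads. That fall came mainly from Cyp4a14 and Cyp4a10, omega-hydroxylases of fatty acids that are also induced by the nuclear receptor PPAR-alpha. Cyp4a14 had 428844, 397576 and 380595 on chow and 18766, 14345 and 11585 in NASH and a difference of -4.78 ± 0.18 (SE, adjusted p = 2.09e-07), and its share went from 0.6635 ± 0.03153% to 0.03264 ± 0.006953%.

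Upstream in the same axis, the growth hormone receptor gene Ghr had 19299, 20575 and 23828 on chow and 20940, 26263 and 18066 in NASH, and the diets overlapped; with scaling by total reads it was called higher (0.44, adjusted p = 0.0163). Of 24 genes of the growth hormone and insulin-like growth factor axis, 7 rose and 8 fell (11 and 6). Igf1, the circulating growth factor, had 41264, 40855 and 32759 on chow and 20361, 25472 and 16603 in NASH and fell by 0.89. Igfals, which stabilises it in plasma, fell by 0.84, and Igfbp2, a binding protein, by 2.39. Stat5a, a transcription factor downstream of the receptor, rose by 1.02, and Igfbp7, a matrix-associated binding protein, by 1.33.

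**Figure D3:**
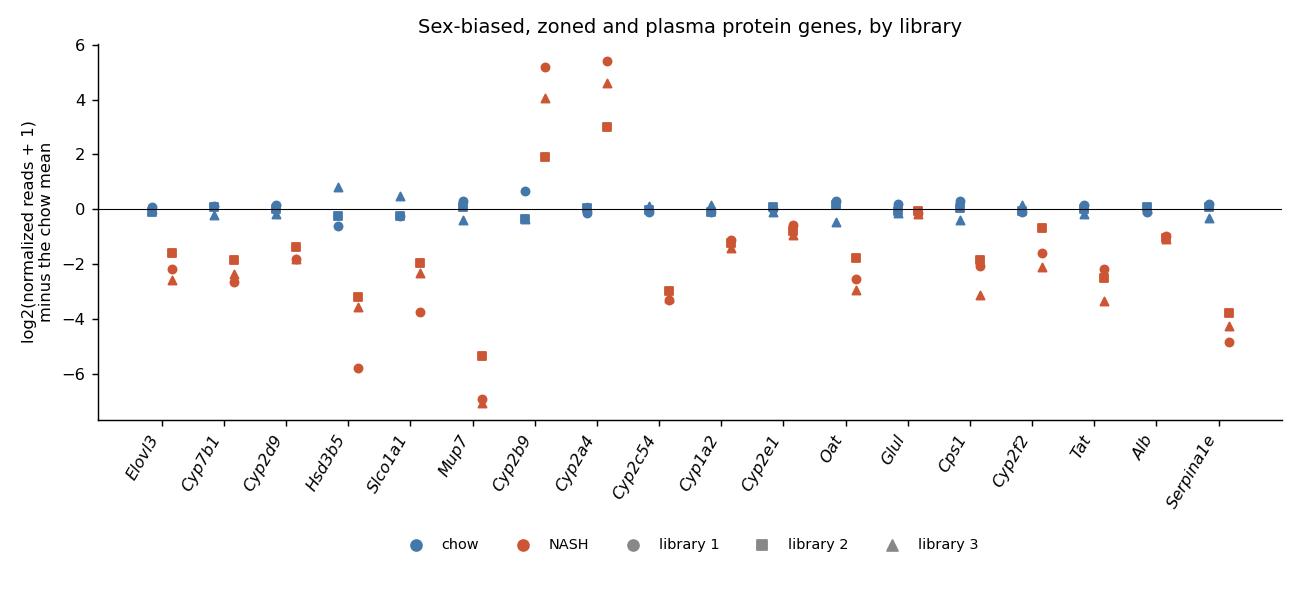
Points are single libraries (shape gives the library number, colour the diet), as log2(normalized reads + 1) minus the mean of the chow libraries, for male-biased genes (Elovl3 to Mup7), female-biased (Cyp2b9, Cyp2a4), pericentral and P450 genes (Cyp2c54 to Glul), periportal genes (Cps1 to Tat) and plasma proteins. Glul lies near 0 in both diets, Mup7 falls furthest, and Cyp2b9 and Cyp2a4 rise with a wide spread.

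Genes of the portal side of the lobule fell in most members, 16 of 21, with 1 higher (14 and 2) and a median of -1.23 (-0.81). They took 2.743 ± 0.2603% on chow and 1.282 ± 0.2481% in NASH of reads. Cps1, the entry enzyme of the urea cycle, had 411030, 341645 and 253060 on chow and 78499, 90726 and 38318 in NASH and a difference of -2.34 ± 0.31 (SE, adjusted p = 0.000299). Tat, which breaks down tyrosine, had 158054, 142991 and 128343 on chow and 31816, 24975 and 14140 in NASH and -2.67 ± 0.25 (SE, adjusted p = 4.61e-05). Cyp2f2, a portal P450, fell by 1.46, and Etnppl, an ethanolamine phosphate lyase, fell by 3.66. The member that rose was the cell adhesion gene Cdh1, from 1332, 1216 and 1331 to 2602, 1956 and 2916. Ass1, an abundant urea cycle enzyme in liver, was listed at 22.5, 22.7 and 18.5 and 8.26, 6.03 and 1.61 normalized reads, levels that its known abundance does not match. It was called lower and is counted above, and without it 15 of 20 periportal genes were lower and 1 higher (13 and 2).

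Among 25 pericentral genes 14 fell and 1 rose (8 and 6), and the markers did not move alike. Glul, the glutamine synthetase that marks the cells next to the central vein, had 100897, 85386 and 80273 on chow and 79852, 85826 and 77932 in NASH, with overlapping diets, and was called higher with scaling by total reads (0.29, adjusted p = 0.039). Oat, an ornithine aminotransferase of the same cells, fell from 174907, 159462 and 104109 to 24435, 42317 and 18685 (-2.41 ± 0.29 (SE, adjusted p = 0.00016)). Cyp8b1, the sterol hydroxylase that makes cholic acid, fell by 2.96, and Cyp1a2, a drug-metabolising P450, by 1.24. Cyp2e1, the ethanol-oxidising P450, had 717732, 750721 and 667628 on chow and 481689, 414319 and 376396 in NASH. Its difference of -0.75 ± 0.24 (SE, adjusted p = 0.029) was not called with scaling by total reads (adjusted p = 0.0652), nor without any one chow library (adjusted p = 0.0923 to 0.125) or without the first NASH library (0.0572). Lect2, a secreted chemotactic protein, was the one pericentral member that rose, by 0.43.

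Of 47 P450 genes of families 1 to 3, 29 fell and 7 rose (18 and 10). Cyp2c54 had 17730, 18323 and 20349 on chow and 1925, 2370 and 2028 in NASH and a difference of -3.16 ± 0.10 (SE, adjusted p = 1.23e-07), and Cyp2c29 and Cyp2c40 fell by 2.55 and 3.36. Cyp3a11, a main drug-metabolising P450, fell by 0.77, a call that scaling by total reads ended (adjusted p = 0.0593). Cyp2c55 had 73.6, 55 and 114 on chow and 52.3, 72.4 and 66 in NASH, with overlap. Por, the reductase that passes electrons to all these enzymes, fell by 1.11. Of 51 phase II conjugation genes 25 fell and 8 rose (18 and 17), and the median changed sign from -0.40 to 0.01. Without the second chow library 5 rose. Ugt2b38, a glucuronosyltransferase, fell by 2.70 and Nnmt, which methylates nicotinamide, by 3.15, while the glutathione transferases Gsta1 and Gstm3 rose by 2.90 and 2.33.

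The methionine cycle, which supplies methyl groups, was listed together with other one-carbon genes. The joint list took 2.336 ± 0.3324% on chow and 1.216 ± 0.1397% in NASH of reads. Of 36 one-carbon genes 19 fell and 6 rose (15 and 10). Mat1a, which makes the methyl donor S-adenosylmethionine, had 698537, 620842 and 442811 on chow and 170006, 188231 and 137396 in NASH and a difference of -1.82 ± 0.24 (SE, adjusted p = 0.000278). Gnmt, which uses up excess of it, fell by 2.29, Bhmt, which remakes methionine from betaine, by 1.16, and Cth, the last step to cysteine, by 2.87. In the same list, the mitochondrial folate enzymes Mthfd2 and Mthfd1l, better known from growing cells, rose by 2.18 and 1.43. Mthfd2 had 55.8, 45.3 and 48.2 on chow and 219, 243 and 222 in NASH.

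Of 45 peroxisomal genes 33 fell and 2 rose (15 and 8). Ehhadh, an enzyme of peroxisomal beta-oxidation, had 213046, 170128 and 122208 on chow and 19903, 35477 and 24394 in NASH and fell by 2.67, and Hacl1, of alpha-oxidation, fell by 2.12. Acox3, which oxidises branched chains, rose by 0.44. Small falls ran through the respiratory chain, 56 of 75 members, with 2 higher. This result turned with the scaling, with 2 lower and 6 higher and a median of -0.40 that became 0.02. It also fell to 30 lower members without the second chow library and 33 without the third NASH library, and the list's share of reads was 1.258 ± 0.0293% on chow and 1.267 ± 0.09832% in NASH, with overlap. Ndufs7, a subunit of complex I, was lower under both scalings, by -0.81 and -0.39. In the tricarboxylic acid cycle 11 of 20 fell and 3 rose (3 and 9). Fh1, fumarase, had 34048, 30250 and 18111 on chow and 9342, 8985 and 7074 in NASH and fell by 1.66, and Suclg2, the GTP-specific succinyl-CoA ligase subunit, rose by 0.42.

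**Figure D4:**
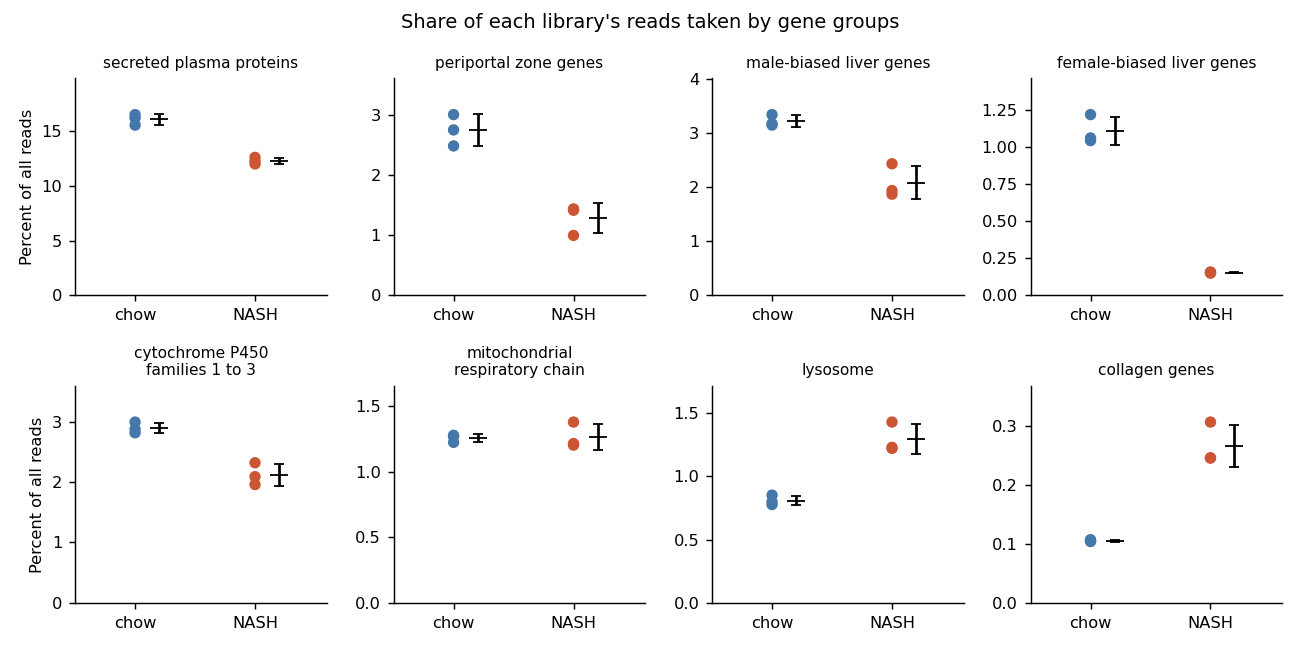
Points are libraries and bars the mean ± SD (n = 3) of the percentage of a library's reads that a gene group takes, on axes that start at 0. Plasma protein, periportal, sex-biased and P450 genes take smaller shares in NASH, lysosomal and collagen genes larger ones, and the respiratory chain overlaps.

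Cytosolic ribosomal protein genes showed no direction that held under both scalings, with 6 of 78 lower and 0 higher (0 and 32), and from 0 without the second chow library to 14 without the first NASH library lower. Of 20 cytosolic aminoacyl-tRNA synthetases 7 fell and 3 rose (0 and 10), and 3 fell without the first chow, the second chow or the third NASH library. Cars and Wars, for cysteine and tryptophan, rose by 0.61 and 0.41.

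Of 46 hepatocyte transcription factors 24 fell and 5 rose (11 and 15). Hnf4a, a central regulator of hepatocyte genes, had 41785, 41956 and 50097 on chow and 25437, 22100 and 17216 in NASH and a difference of -1.06 ± 0.15 (SE, adjusted p = 0.000414). Nr1i3, the drug-sensing receptor CAR, fell by 1.18 and Bcl6, a repressor, by 1.44. Nr1h4, the bile acid receptor FXR, fell by 0.46, which became -0.04 with scaling by total reads (adjusted p = 0.696). Srebf1, an activator of fatty acid synthesis, rose from 2094, 2386 and 4085 to 13157, 11230 and 9817 (2.05 ± 0.22 (SE, adjusted p = 8.3e-05)), and Pparg, better known as the fat cell regulator, from 537, 682 and 797 to 1802, 1560 and 1838 (1.38 ± 0.14 (SE, adjusted p = 7.6e-05)). Of 25 genes in the clock list, which also holds the reductase gene Por given above, 10 fell and 4 rose (2 and 7). The clock outputs Dbp and Nr1d2 overlapped between diets, Dbp with 4552, 5192 and 4747 on chow and 3785, 4646 and 4971 in NASH. The labels do not give the time of day at which livers were taken. Per2 fell by 0.45, which became -0.03 with scaling by total reads (adjusted p = 0.86). Ccrn4l, which encodes the deadenylase nocturnin, fell from 6505, 5362 and 5138 to 1146, 1037 and 1015 (-2.40 ± 0.11 (SE, adjusted p = 6.18e-07)). The E-box was searched as CACGTG within 250 bases before the start. It lay in 6 of 20 members of the clock list with a RefSeq promoter (30%) and in 6.86% of all genes. The D-box, searched there as TTA, any 2 bases and TAA, lay in 2 of the 20 (10%) and in 6.3%.

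Lipid droplet genes were divided. Of 34 members 11 rose and 14 fell (16 and 5). Cidea, a droplet-fusing protein typical of brown fat, rose from 55.8, 25.9 and 10.3 to 1268, 3123 and 1556 (6.15 ± 0.52 (SE, adjusted p = 2.61e-05)). Mogat1, a triglyceride-synthesis enzyme, rose by 2.63, Fabp4, a fatty acid carrier of fat cells and macrophages, by 1.87, and Plin4, a droplet coat protein, by 1.76. Plin2, the main droplet coat protein of hepatocytes, had 53797, 46152 and 43925 on chow and 35441, 46687 and 40524 in NASH, with overlapping diets. Plin5, which ties droplets to mitochondria, fell by 1.28.

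Of 25 genes of cholesterol synthesis 24 fell and 0 rose (22 and 0), with a median of -1.81 (-1.40). Hmgcs1, an early enzyme of the pathway, had 9565, 10491 and 19995 on chow and 3825, 3533 and 4255 in NASH, highest in the third chow library. Without that library its difference was -1.38 and 22 of the 25 genes were still lower. Sqle, the squalene epoxidase, had 3561, 3958 and 5141 on chow and 259, 248 and 471 in NASH and a difference of -3.74 ± 0.23 (SE, adjusted p = 4.12e-06), and Idi1, the isomerase that makes the first branched building block, fell by 3.95. Promoters of this list share a CCAAT box, the letters CCAAT on either strand, in 16 of the 17 members with a RefSeq promoter, against 37.5% of 27025 genes over the same 250 bases before the start. The sterol response element, searched on both strands as ATCAC followed directly by CCCAC, was in 0 of the 17 and in 0.0814% of all, and variants of it were not searched. Mvk, mevalonate kinase, is shown for its repeated boxes and was chosen after its values were seen (1128, 1101 and 1340 on chow and 520, 459 and 458 in NASH, -1.31 ± 0.12 (SE, adjusted p = 3.21e-05)). Its 250 bases before the start, on the + strand at chr5:114444019-114444268 in GRCm38.p6, follow 5′ to 3′ with the boxes in capitals.
Mvk: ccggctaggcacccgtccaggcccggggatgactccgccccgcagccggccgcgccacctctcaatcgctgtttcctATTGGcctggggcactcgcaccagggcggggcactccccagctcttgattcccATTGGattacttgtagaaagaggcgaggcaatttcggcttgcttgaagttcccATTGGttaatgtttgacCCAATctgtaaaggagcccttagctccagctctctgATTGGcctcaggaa

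Stress genes rose and fell at about the shares of genes at large. Of 36 genes of the unfolded protein and integrated stress responses 11 rose and 8 fell (21 and 2), and 4 fell without the third NASH library. Over all genes 25.0% were higher and 21.0% lower (47.2% and 5.41%), so the counts show no direction of this list. Psat1, a serine-synthesis enzyme, rose from 32, 47.5 and 26.7 to 270, 233 and 245 (2.82 ± 0.24 (SE, adjusted p = 2.9e-05)), Ddit3, the stress factor CHOP, by 0.67, and Trib3, its target, by 0.62. Chac1, which degrades glutathione, had 42.7, 80.9 and 69.7 on chow and 1239, 174 and 309 in NASH, highest in the first NASH library. Against these, Asns, asparagine synthetase, fell by 2.15 with 1002, 841 and 223 on chow and 249, 107 and 79.6 in NASH; the diets overlapped and the call was lost without the third NASH library (adjusted p = 0.058). Hspa5, the chaperone BiP, had 31288, 29711 and 27957 on chow and 24935, 24545 and 19728 in NASH and a difference of -0.37 ± 0.12 (SE, adjusted p = 0.0264) that became 0.05 with scaling by total reads (adjusted p = 0.67) and was lost without the first chow (0.0988), the second chow (0.0859) or the third NASH library (0.0663). Fgf21, a secreted stress hormone, had 622, 675 and 1127 on chow and 634, 332 and 638 in NASH, with overlap. The ER stress response element, CCAAT and CCACG with 9 bases of any kind between them, lay within 250 bases before the start in 7 of 33 members with a RefSeq promoter (21.2%) and in 0.13% of all genes, and of those 7 genes 3 fell and 1 rose.

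Of 40 antioxidant genes of the NRF2 programme 15 rose and 9 fell (23 and 2). Cbr3, a carbonyl reductase, rose from 54.6, 61.5 and 56.4 to 296, 212 and 439 (2.37 ± 0.26 (SE, adjusted p = 8.85e-05)). Gstp1, a glutathione transferase of male-biased level in mouse liver, fell from 45655, 52860 and 46133 to 16361, 15952 and 15635 (-1.59 ± 0.10 (SE, adjusted p = 4.42e-06)), and Gsta2 fell by 0.89. Of 26 targets of p53 and genes of senescence 15 rose and 1 fell (19 and 0). Cdkn1a, the cell cycle inhibitor p21, had 246, 336 and 201 on chow and 2237, 1182 and 1558 in NASH and a difference of 2.65 ± 0.24 (SE, adjusted p = 3.61e-05).

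Acute phase genes, which the liver raises in inflammation, rose in 12 of 32 members and fell in 4 (20 and 2). Lcn2, a siderophore-binding protein, rose from 693, 980 and 407 to 16998, 12338 and 12049 (4.38 ± 0.27 (SE, adjusted p = 3.92e-06)), and Orm2, an acid glycoprotein, from 1163, 1398 and 1140 to 6645, 5818 and 4938 (2.23 ± 0.12 (SE, adjusted p = 2.72e-06)). The serum amyloid genes Saa1 and Saa2 rose by 1.51 and 2.38, near-identical copies between which reads may be split. Il6ra, the interleukin-6 receptor through which many of these genes are induced, fell by 1.35. Of 46 complement genes 13 rose and 14 fell (19 and 7), and 9 fell without the second chow library. C8b, a hepatocyte-made part of the membrane attack complex, fell by 1.67. C1qa, made by macrophages, rose from 3864, 4285 and 5433 to 9421, 7963 and 12719 (1.14 ± 0.17 (SE, adjusted p = 0.000654)), and Itgax, the integrin CD11c of macrophages and dendritic cells, by 4.44. Of 42 coagulation genes 13 rose and 18 fell (18 and 5). Klkb1, prekallikrein, and Serpinc1, antithrombin, fell by 1.03 and 0.85, while Plat and Plau, the plasminogen activators, rose by 3.59 and 2.46.

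Markers of recruited macrophages rose in 20 of 22 members and fell in 1 (21 and 1), with a median of 3.22 (3.64). They took 0.06386 ± 0.005337% on chow and 0.267 ± 0.0834% in NASH of reads. Trem2, a lipid-sensing receptor, had 93.7, 78.8 and 158 on chow and 1624, 1333 and 2871 in NASH and a difference of 4.11 ± 0.31 (SE, adjusted p = 1.31e-05). Gpnmb, a lysosomal membrane glycoprotein on chromosome 6 at 49036546 to 49070929 (GRCm38), had 77.1, 103 and 62.6 on chow and 5620, 5309 and 9452 in NASH and a difference of 6.36 ± 0.23 (SE, adjusted p = 2.09e-07). Mmp12, a macrophage elastase, rose by 5.57. The member that fell, F10, coagulation factor X, is also made by hepatocytes. Kupffer cell markers numbered 16, with 6 higher and 4 lower (7 and 4), within which Clec4f and Vsig4 overlapped between diets. Clec4f, a lectin found on Kupffer cells, had 7304, 8545 and 10825 on chow and 7289, 5588 and 9268 in NASH. Cd163, a haemoglobin scavenger receptor, had 2631, 2685 and 2732 on chow and 67.9, 23.1 and 73.2 in NASH and a difference of -5.75 ± 0.36 (SE, adjusted p = 4.12e-06). Timd4, a receptor for dying cells, had 613, 712 and 685 on chow and 251, 91.5 and 191 in NASH and fell by 2.02. The F4/80 gene Adgre1, of resident and recruited macrophages alike, rose by 1.14.

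Dendritic cell markers rose in 21 of 22 members and fell in 0 (21 and 0). Some members are also in other lists, Ly6d in the fetal, Bst2 in the interferon-stimulated and Cd24a in the ductular list. Flt3, a growth factor receptor of dendritic cells, had 20.2, 25.9 and 19.5 on chow and 103, 115 and 131 in NASH and a difference of 2.36 ± 0.25 (SE, adjusted p = 7.66e-05). Of 28 markers of T and NK cells 20 rose and 2 fell (22 and 1), and 11 rose without the third NASH library. Cd8a had 93.7, 62.6 and 19.5 on chow and 159, 240 and 246 in NASH, Gzmk, a granzyme, had 9.49, 14 and 5.13 on chow and 46.8, 86.5 and 120 in NASH, and the chemokine gene Ccl5 had 208, 194 and 96.4 on chow and 501, 1030 and 807 in NASH; their differences were 2.09, 3.01 and 2.24. Zap70, a T cell kinase, went the other way, with 1532, 1421 and 966 on chow and 263, 523 and 156 in NASH. Its chow values lay far above those of Cd8a, and which cells its reads came from was not tested. Of 21 B and plasma cell markers 4 rose and 1 fell (6 and 1), and 4 fell without the third chow library. Cd79a, part of the B cell receptor, had 208, 117 and 120 on chow and 103, 66.4 and 146 in NASH, with overlap. Sdc1, a plasma cell marker that hepatocytes also express, was the member that fell, by 0.73. Of 19 neutrophil and mast cell markers analysed, 14 rose and 2 fell (14 and 2). S100a8 rose from 41.5, 46.4 and 47.2 to 174, 156 and 235 (2.02 ± 0.22 (SE, adjusted p = 9.27e-05)), while Kit, a mast and progenitor cell receptor, fell by 1.05. The 14 erythroid and platelet markers analysed had 2 higher and 3 lower (2 and 2). Part of this list, among it the globin genes, was not analysed here, so how much blood each liver held was not tested.

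Markers of fibroblasts rose nearly throughout. Of 29 myofibroblast and portal fibroblast markers 27 rose and 0 fell (27 and 0), taking 0.02001 ± 0.001365% on chow and 0.1016 ± 0.02329% in NASH of reads. Timp1, an inhibitor of matrix proteases, had 0, 16.2 and 6.15 on chow and 503, 365 and 569 in NASH and a difference of 6.57 ± 0.82 (SE, adjusted p = 0.000207). Acta2, smooth muscle actin, had 230, 121 and 117 on chow and 280, 546 and 442 in NASH and a difference of 1.45 ± 0.30 (SE, adjusted p = 0.00363), less than Col1a1, a chain of type I collagen, at 5.18; that difference between genes was not tested. Of 20 markers of quiescent stellate cells 10 rose and 5 fell (13 and 2). Lrat, which stores vitamin A as ester, had 1120, 1228 and 1597 on chow and 1225, 2073 and 2753 in NASH, and Reln, a secreted glycoprotein, had 4059, 4018 and 4931 on chow and 3803, 5128 and 5550 in NASH; both overlapped, and both were called higher with scaling by total reads (adjusted p = 0.0148 and 0.0166). Adamtsl2, a matrix protein, rose by 2.25 and Pdgfrb, the receptor for PDGF-B, by 2.20. Collagen genes as a family took 0.1052 ± 0.001588% of reads on chow and 0.2656 ± 0.03507% in NASH, with 22 of 39 higher and 4 lower (23 and 1).

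Markers of endothelium were split, 7 of 29 higher and 11 lower (14 and 7), and 2 to 4 rose when the first chow, the second chow, the first NASH or the third NASH library was left out. Their share of reads was 0.1178 ± 0.008431% on chow and 0.1216 ± 0.003772% in NASH, with overlap. Stab2, a sinusoidal scavenger receptor, had 4252, 3833 and 4609 on chow and 3897, 3613 and 3790 in NASH, and Pecam1, a general endothelial marker, had 1753, 1593 and 1794 on chow and 1917, 1593 and 1671 in NASH, both with overlap; with scaling by total reads Pecam1 was called higher (0.42, adjusted p = 0.00944). Ehd3, a sinusoidal trafficking protein, fell by 1.44, Bmp2, the endothelial signal that sets hepcidin, by 1.38, and Cd34, absent from healthy sinusoids as a rule, rose by 2.71. Of 34 cholangiocyte and ductular reaction genes 28 rose and 1 fell (30 and 1). Krt19, a bile duct keratin, had 51, 42.1 and 56.4 on chow and 341, 168 and 343 in NASH and 2.42 ± 0.29 (SE, adjusted p = 0.000156). Epcam, a ductal adhesion protein, rose by 2.60, Cldn4, a tight junction claudin, by 4.14, and Sox9, a ductal transcription factor, by 0.74. Spp1, osteopontin, made by ductal cells and macrophages, had 1717, 2350 and 2330 on chow and 28269, 17006 and 33266 in NASH and 3.58 ± 0.22 (SE, adjusted p = 4.24e-06). The second NASH library was the lowest of the NASH libraries in Krt19, Epcam, Cldn4, Sox9 and Spp1. Aqp1, a water channel of ducts and endothelium, fell by 0.65.

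**Figure D5:**
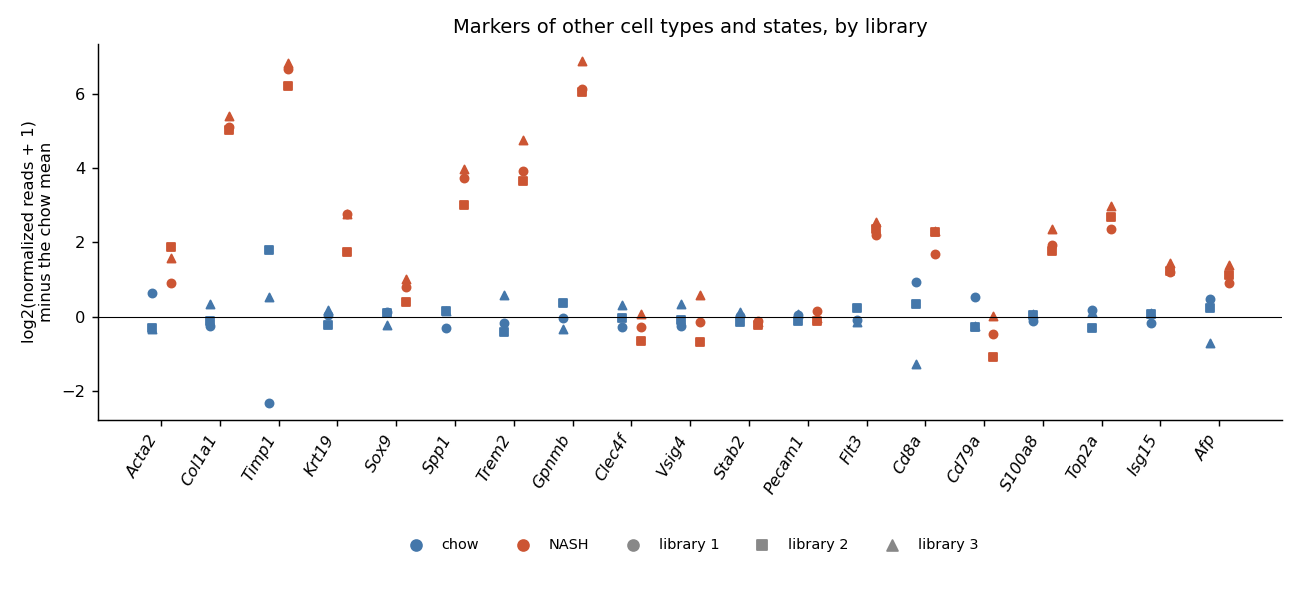
Points are single libraries (shape gives the library number, colour the diet), as log2(normalized reads + 1) minus the mean of the chow libraries, for markers of fibroblasts, ducts, macrophages, Kupffer cells, endothelium, dendritic cells, lymphocytes and neutrophils, and for cell cycle, interferon and fetal genes. Timp1 and Gpnmb rise furthest, Clec4f, Vsig4, Stab2, Pecam1 and Cd79a overlap, and the chow libraries differ widely in Timp1 and Cd8a.

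Signalling genes rose in most members of the inflammatory and fibrogenic lists. Of 45 genes of toll-like receptor, TNF and interleukin-1 signalling 29 rose and 5 fell (39 and 1). The cytokine genes Il1b and Tnf had 75.9, 80.9 and 119 on chow and 207, 289 and 433 in NASH and 16.6, 7.55 and 28.7 on chow and 64.3, 53.3 and 88.5 in NASH, with differences of 1.70 and 2.05. Tlr1, a receptor for bacterial lipopeptides, rose by 2.66 and Tlr4, the endotoxin receptor, by 0.88, whereas Il1rap, a co-receptor of interleukin-1, fell by 0.80. Of 47 genes of TGF-beta, BMP and PDGF signalling 30 rose and 6 fell (34 and 2). Among ligands Tgfb1 rose by 0.88 and Pdgfb from 116, 122 and 131 to 510, 410 and 646 (2.05 ± 0.18 (SE, adjusted p = 3.2e-05)). Smad7, a feedback inhibitor of TGF-beta, rose by 0.78, and Ctgf, a matrix-associated target, had 1888, 1955 and 1810 on chow and 2624, 1149 and 1525 in NASH, with overlap. The thrombospondin gene Thbs1, whose product can activate latent TGF-beta, rose by 2.53.

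The lysosome list took 0.8091 ± 0.03828% on chow and 1.293 ± 0.1177% in NASH of reads, and 27 of 50 members rose and 8 fell (38 and 3). Ctsk, a collagen-cleaving cathepsin, had 67.6, 59.3 and 66.7 on chow and 397, 279 and 467 in NASH, and Cd63, a lysosomal membrane protein, had 425, 432 and 418 on chow and 6432, 3349 and 6384 in NASH and rose by 3.60. Ctsd rose by 0.83. Npc1, which exports cholesterol from lysosomes, and Gaa, which digests glycogen, fell by 0.78 and 0.76. Annexins, proteins that bind membranes with calcium, rose in 8 of 11 members with 0 lower (11 and 0), Anxa2 from 715, 779 and 835 to 7729, 6799 and 8455 (3.30 ± 0.10 (SE, adjusted p = 1.23e-07)). S100 genes rose in 8 of 13 and fell in 1 (10 and 0), S100a11 from 141, 146 and 193 to 1909, 1725 and 1904. The member counted as lower, S100pbp, encodes a binding partner and was not called without the first NASH library (adjusted p = 0.0548) or with scaling by total reads (0.333). Of 50 cytoskeleton genes 38 rose and 4 fell (44 and 2). Actb, beta-actin, often used as a reference gene, had 20671, 20885 and 24235 on chow and 45305, 44941 and 49636 in NASH and rose by 1.09, and Vim, vimentin, rose by 1.86, while the tubulin gene Tuba4a fell by 1.19.

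Cell cycle genes rose in 34 of 42 members and fell in 0 (41 and 0). Their levels were low, 0.02009 ± 0.001846% on chow and 0.04597 ± 0.01094% in NASH of reads. Top2a, the topoisomerase of dividing cells, had 65.2, 46.4 and 63.6 on chow and 302, 380 and 465 in NASH and a difference of 2.68 ± 0.22 (SE, adjusted p = 2.11e-05). Mki67, the proliferation marker Ki-67, rose from 67.6, 74.5 and 129 to 208, 326 and 471, and Ccnb1, a mitotic cyclin, by 2.12. A CCAAT box lay within the 250 bases before the start in 27 of 33 members with a RefSeq promoter (81.8%). The share over all genes was 37.5%. Of the 27, 21 rose, and of all 42 members 34 did. Whether members with and without a box differed was not tested. The cell cycle homology region, searched as TTTGAA, was in 10 of the 33 (30.3%) and in 18.3% of all. The same letters thus stand in promoters of a list that rose and of cholesterol genes that fell. The Top2a promoter, shown because it holds 6 boxes (capitals), is on the - strand at chr11:99024190-99024439 in GRCm38.p6, 5′ to 3′.
Top2a: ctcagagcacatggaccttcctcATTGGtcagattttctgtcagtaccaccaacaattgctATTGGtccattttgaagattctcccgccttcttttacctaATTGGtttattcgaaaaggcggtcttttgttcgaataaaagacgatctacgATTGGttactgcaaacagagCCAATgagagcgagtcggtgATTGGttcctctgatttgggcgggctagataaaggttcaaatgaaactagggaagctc

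Interferon-stimulated genes rose in 27 of 31 members and fell in 0 (30 and 0). Isg15, a ubiquitin-like protein, had 384, 455 and 469 on chow and 1009, 1027 and 1184 in NASH and a difference of 1.30 ± 0.12 (SE, adjusted p = 4e-05). Cxcl9, a chemokine for T cells, rose by 2.47, Ifi44 by 2.57 and Irf1, a transcription factor of the response, by 0.86. The interferon-stimulated response element was searched on both strands as GAAA, any 2 bases and GAAA again. It lay before the start in 13 of 24 members (54.2%) and in 3.46% of all genes. Of the 13, 12 rose, and of all 31 members 27 did. Whether members with and without the element differed was not tested. A match is a description of the letters and not evidence that a factor binds. The Isg15 promoter is shown with its 3 overlapping matches in capitals, on the - strand at chr4:156200819-156201068 in GRCm38.p6, 5′ to 3′.
Isg15: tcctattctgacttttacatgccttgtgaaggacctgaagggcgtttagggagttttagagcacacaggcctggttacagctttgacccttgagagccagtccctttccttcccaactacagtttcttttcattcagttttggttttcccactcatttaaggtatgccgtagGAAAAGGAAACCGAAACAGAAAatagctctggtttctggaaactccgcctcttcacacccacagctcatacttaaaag

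Fetal and tumour-linked liver genes rose in 24 of 36 members and fell in 0 (28 and 0). H19, an imprinted non-coding RNA of fetal liver, had 10.7, 18.3 and 13.3 on chow and 469, 213 and 619 in NASH and a difference of 4.75 ± 0.38 (SE, adjusted p = 1.9e-05). Ly6d, a surface protein, rose from 266, 208 and 158 to 4174, 4653 and 4738 (4.45 ± 0.17 (SE, adjusted p = 2.09e-07)). Afp, alpha-fetoprotein, had 116, 98.2 and 50.2 on chow and 156, 184 and 219 in NASH and rose by 1.14, a call lost without the third NASH library (adjusted p = 0.0579). Gpc3, a glypican of liver tumours, had 41.5, 55 and 97.4 on chow and 52.3, 94.5 and 33.8 in NASH, with overlap. Of the 8 largest called rises at a mean of 500 normalized reads or more, predicted genes aside, those in no list were Col1a1, given above, and Sdcbp2, a syntenin, at 7.02, Ephb2, an ephrin receptor, at 5.51 and Fam83a at 4.75. Ephb2 had 21.4, 20.5 and 23.6 on chow and 1011, 1123 and 981 in NASH and Fam83a 65.2, 73.4 and 55.4 on chow and 1809, 1538 and 1949 in NASH, 2 genes whose libraries lay close together within each diet.

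Of 39 genes of iron and vitamin A handling 8 rose and 9 fell (25 and 7). Retsat, a retinol saturase, had 104512, 102039 and 101867 on chow and 19234, 22231 and 16920 in NASH and a difference of -2.41 ± 0.12 (SE, adjusted p = 1.7e-06). Tfrc, the transferrin receptor, fell from 4066, 3595 and 4434 to 1352, 1095 and 1104, Cyp26b1, which clears retinoic acid, fell by 2.05, and Aldh1a2, which makes it, rose by 2.81. Hamp in NASH had 12251, 19028 and 12215 normalized reads, within the range of the chow libraries given above. Its difference of -0.16 was not called (adjusted p = 0.895), but without the third chow library it was -1.41 and called lower (adjusted p = 0.00115). Of 54 hepatocyte solute transporters 23 fell and 9 rose (19 and 23). Slco1a4, an organic anion carrier, fell by 2.07 and Slc43a1, an amino acid carrier, by 2.26. Aqp8, a channel for water and hydrogen peroxide, rose from 432, 571 and 830 to 4968, 5912 and 5827 (3.23 ± 0.20 (SE, adjusted p = 3.96e-06)), and Abcb1a, a drug efflux pump, from 166, 197 and 247 to 1362, 917 and 1067 (2.45 ± 0.18 (SE, adjusted p = 1.35e-05)).

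The genes with the largest spread among libraries of the same diet are given next. Irx2, a homeobox gene, had 0 reads in every library except the first NASH library, at 392 normalized reads. Fez1, a kinesin adaptor, had 486, 2.01 and 3.22 in NASH. Lpin1, a phosphatidate phosphatase, had 14316, 15647 and 15830 on chow and 15659, 2477 and 2406 in NASH, and its difference of -1.75 was -2.64 without the first NASH library and was not called without any one of the other libraries (adjusted p = 0.0603 to 0.143), nor by edgeR (0.143). On chow, Moxd1, a monooxygenase-like protein, had 858, 522 and 8.2 and in NASH 7.34, 1 and 0. Every NASH library lay below every chow library, and its difference of -5.97 ± 1.48 (SE, adjusted p = 0.00887) was -8.03 without the third chow library (adjusted p = 0.000125). Slc4a1, the red cell anion exchanger, had 5.93, 4.32 and 290 on chow and 9.18, 10.1 and 2.41 in NASH. Moxd1, Slc4a1 and Hamp are among the genes in which the third chow library stood apart. A single gene had no read in one diet and at least 20 in each library of the other. Cfap44, of the cilium, had 0 reads in all chow libraries and 30, 20 and 20 in NASH, at least 19.4-fold higher when set against 3 reads over the chow group.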

How the data were processed

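RNA sequencing of whole liver was analysed in 6 libraries, 3 per diet. The submitters' processing notes name STAR, HTSeq and DESeq2, with FastQC and Seurat for the series, and build mm10. Which versions and settings were used is not given in the sources used here. Per gene and library, the deposited liver table holds a normalized read signal, which is a read count divided by 1 factor per library. Dividing by the smallest value above 0 gave whole reads for 100% of values (tolerance 0.01). The authors' own fold change and p-value columns were not used. Counts of genes higher or lower come from limma 3.58.1 in R 4.3.3, fitted to log2(signal + 1) with variance trended on level, no filter, two-sided, Benjamini-Hochberg adjustment over 16703 genes, called under 0.05. The pseudocount of 1 understates the log2 difference of genes with few reads.

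Alternatives were other pseudocounts, a filter, thresholds, scalings, DESeq2 1.42.0 and edgeR 4.0.16 on recovered reads, no trend, a replicate block and each library left out. Leaving out libraries for the shares of reads was added after seeing the data. Simulated data had 200 of 16703 genes changed. On them the liver comparison found 100% of the 4-fold and 82% of the 2-fold changes, with 5.21% of calls false. In the liver data 7691 genes were called. The share of calls that are false with so many genes changed, or with another scaling between libraries, was not tested. Replicates differed by far more than counting noise, so no library was a copy. The 48 gene lists, their members and the rule for genes to name were chosen with earlier results of these data known. The rule takes the 10 largest rises and falls by difference of means, the 8 largest by log2 difference at a mean of at least 500 reads, set genes and up to 2 called members per direction of each list at a mean of at least 50, genes at 0 in one diet, and the 6 with the largest spread within each diet at that mean. Mup20, Mvk, Kdm5d, Uty and Xist were named after their values were seen. Some genes that the rule names are not reported here. Symbols were matched to GENCODE M21 on GRCm38, the assembly of mm10, for 96.16% of genes. Promoter sequences are RefSeq's, GRCm38.p6.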

Additional observations from a re-analysis of the deposited data

How the results depend on the processing

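The scaling between libraries mattered most. With scaling by total reads 7878 genes were higher and 904 lower, and 89.7% of calls were rises against 54.3%. Which scaling is right cannot be settled from the table, so rises and falls alike are relative to the authors' factors. A threshold of 0.01 left 4960 calls, 2105 of them lower, and calls of at least 2-fold numbered 3239, with 2661 higher and 578 lower. Pseudocounts, the filter, TMM, edgeR, DESeq2, no trend and each library left out kept all 3 counts within 1.5 times; leaving out libraries gave 5863 to 7407 calls, 3231 to 4057 higher and 2499 to 3350 lower.

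Of the 213 genes named, 15 changed direction with scaling by total reads, all but Hspa5 (0.05) uncalled before: Clec4f (0.14), Ctgf (0.24), Cyp2c55 (0.12), Dbp (0.30), Glul (0.29), Gpc3 (0.27), Hamp (0.26), Jun (0.05), Kdm5d (0.28), Nr1d2 (0.19), Plin2 (0.18), Stab2 (0.25), Uty (0.01) and Vsig4 (0.33). Leaving out single libraries turned the sign of uncalled genes, and the cause was not tested. Their ranges were -0.51 to 0.09 for Ctgf, -0.53 to 3.14 for Fez1, -0.12 to 0.15 for Ghr, -0.52 to 0.21 for Gpc3, -1.41 to 0.59 for Hamp, 0.00 to 4.31 for Irx2, -1.08 to 1.02 for Jun, -0.07 to 0.06 for Pecam1, -2.63 to 0.26 for Slc4a1 and -0.41 to 0.22 for Vsig4. The respiratory chain's change in share of reads, 0.00833 percentage points, ranged from -0.0483 to 0.0397 with single libraries left out (-0.00833 without the third chow library), and the endothelial markers' share, 0.00373, from -0.000183 (without the second chow library) to 0.00822. The 20 shares run so cover all those printed or plotted, and the other 18 kept their direction. Besides Jun, genes not called became called without 1 library, Hamp without the third chow library (-1.41, adjusted p = 0.00115), Ctgf (-0.51, 0.0207), Lrat (0.88, 0.00997) and Ttr (-0.57, 0.0432) without the first NASH library, Uty (-0.57, 0.00935) without the second and Alb (adjusted p = 0.0377) without the third.

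The labels number the libraries of both diets 1 to 3. Deviations from the diet means correlated at -0.0267, -0.032 and 0.179 between libraries of the same number. Library 1 and library 2 of NASH each correlated better with a chow library of another number, at 0.174 and 0.132. The value of 0.179, between the third libraries, was the highest of all pairs. With 3 libraries per diet, such values cannot show whether the numbers pair the samples. A replicate block gave 7447 calls, 4065 higher and 3382 lower, and ended no call among the genes named. Depth, at 47000197 reads or more, limits mainly genes under about 10 reads.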
